A study of Drosophila melanogaster with 2 samples.

Results

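The cells described here are medulla neuroblasts (NBs) whose mRNA counts hold both slp1 and D. They were chosen by measured values. Among the NBs kept for analysis, a cell was a slp1/D NB if it had at least 150 CPM of slp1 (its counts scaled to a common total per cell) and at least 400 CPM of D, with under 100 CPM of B-H1, under 100 CPM of tll and under 500 CPM of gcm. This rule found 321 cells, 46 in experiment 1 and 275 in experiment 2. They were drawn from 2659 kept cells (516 and 2143) of 11891 called cells (6548 and 5343). Kept cells had at least 1 unique molecular identifier (UMI, a counted mRNA molecule) of dpn, under 10% of UMIs from mitochondrial genes and at least 5000 UMIs, after the 5 cells with the most UMIs had been removed. The slp1/D NBs were 8.91% of kept cells in experiment 1 (95% Clopper-Pearson interval 6.60 to 11.7) and 12.8% in experiment 2 (11.4 to 14.3), where the intervals cover counting error only.

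Medulla NBs are the neural stem cells of the largest optic lobe neuropil of the fly, and each divides asymmetrically to renew itself and to give a ganglion mother cell. As they age they express a series of transcription factors in turn, so that neurons born at different times differ in type. slp1 and its neighbour slp2 encode forkhead factors of the middle of this series, and D (Dichaete) encodes a Sox factor that follows them. In fly NBs a factor of the series commonly promotes the next and represses the one before, and successive factors overlap for a time in the same cell.

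Both samples were sorted NBs of untreated larvae of instar 3, raised at 25 °C. Every larva carried E(spl)mgammaGFP, which marks NBs green, together with SoxNGal4 and UAS-RedStinger over the TM6B balancer, in which SoxN-Gal4 drives a red nuclear protein in medulla cells, and double-positive single cells were sorted. Brains of 120 larvae were pooled for each experiment, so each experiment is 1 library, and there is no second condition to compare. The slp1/D NBs were therefore compared with 2 neighbouring classes of kept cells of the same libraries, under the same limits on B-H1, tll and gcm. The slp1-only NBs (116 and 456 cells) had at least 150 CPM of slp1 and under 400 CPM of D. The D-only NBs (31 and 81 cells) had at least 400 CPM of D and under 150 CPM of slp1.

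Experiment 1 was shallower. The median slp1/D NB held 39166 UMIs in experiment 1 and 49394 in experiment 2, the median slp1-only NB 18172.5 and 64095.5, and the median D-only NB 26448 and 49012. The libraries share 9 cell barcodes among all called cells and 0 among kept cells. The mean of a class is given below as the CPM of its summed UMIs, experiment 1 first, and replication is that of the 2 libraries. Since UMIs are scaled to each cell's or class's total, a higher CPM is a larger share of the RNA counted and not a larger amount per cell.

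The genes of the rule are described first, without tests. slp1 was present at a median of 351 CPM per cell in experiment 1 (range 152 to 1214) and 371 CPM in experiment 2 (150 to 1414). D was present at a median of 1363 CPM (407 to 3200) and 1614 CPM (403 to 5014). D exceeded slp1 in 43 of 46 cells and in 264 of 275 cells, and the median ratio of D to slp1 was 3.54 and 4.20. The limits of 400 CPM for D and 150 CPM for slp1 favour such values, in both libraries alike. A cell of the class could hold less D than slp1 only with more than 400 CPM of slp1. These shares and ratios therefore describe the chosen cells only. Across the cells of a library the 2 genes were weakly related, with a Spearman coefficient of 0.306 over 46 cells and 0.099 over 275 cells that share a library and were all chosen on both genes.

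The limits of the class lie within a continuous range of values. The lowest slp1 values inside were 151.8 and 150.4 CPM and the highest among the D-only NBs were 135.6 and 149.9 CPM. For D, the lowest inside were 406.7 and 402.9 CPM and the highest among the slp1-only NBs 386.8 and 398.8 CPM. The D-only NBs were not free of slp1, with a median of 94.3 and 86.2 CPM and only 5 of 31 and 13 of 81 cells at 0. Few slp1/D NBs rested on a single molecule, since 43 of 46 and 273 of 275 had at least 3 slp1 UMIs, and the fewest D UMIs in any of them were 3 and 8. When every cell was thinned to 5000 UMIs, where 1 UMI is 200 CPM, 36 of 46 and 212 of 275 were again slp1/D NBs, and most of the others passed to the D-only class (9 and 43 cells).

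The level of both genes in cells not chosen for them differed between the libraries. In kept NBs with at least 300 CPM of hth, the youngest stage, slp1 was at 89.5 CPM in experiment 1 and 15.9 CPM in experiment 2, and D at 126 and 4.03 CPM, with median depths of 9977 and 79969.5 UMIs. slp1 UMIs were found in 51.7% and 25.0% of these cells and D UMIs in 58.6% and 14.3%. The slp1/D NBs were above these levels, at 370 and 402 CPM of slp1 and 1455 and 1653 CPM of D in the sums. Cells with repo and no dpn were only 4 and 6, and held slp1 at 241 CPM in experiment 1 (exact Poisson interval 104 to 475, from 8 UMIs), which covers the level of the slp1/D NBs, and at 14.0 CPM in experiment 2 (1.69 to 50.4), which does not. D in them was at 90.4 and 27.9 CPM. The slp1 of D-only NBs (87.8 CPM) in experiment 1 was close to that of the hth-rich cells, so that it cannot be told apart from background there, and in experiment 2 (81.2 CPM) it was higher.

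**Figure D1:**
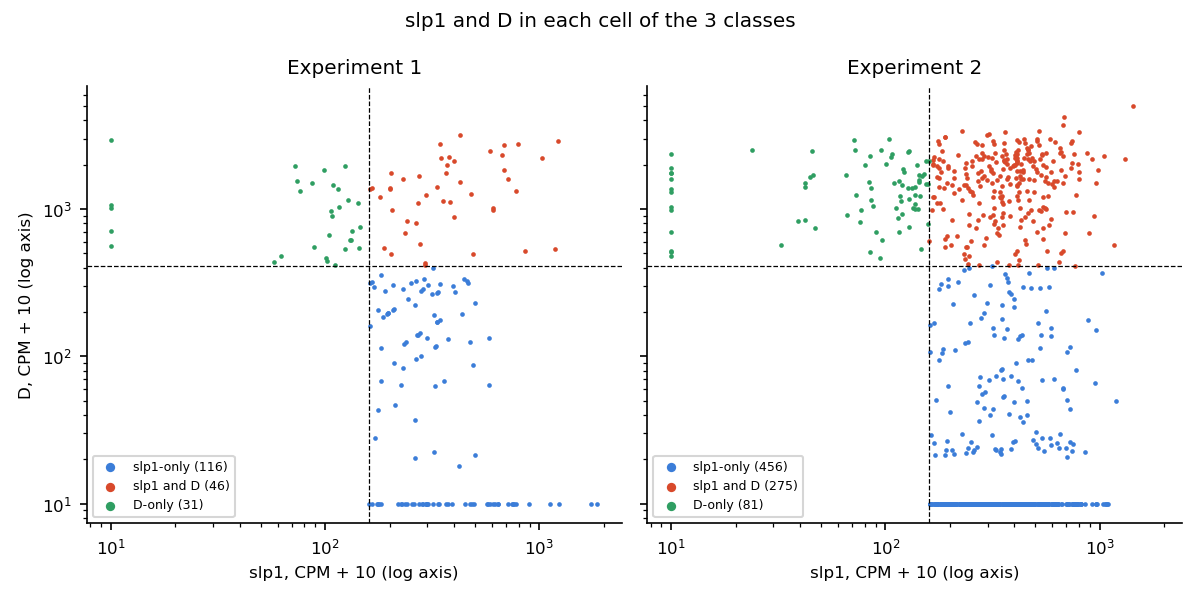
CPM of slp1 and D, each with 10 added, on log axes in every slp1-only, slp1/D and D-only NB of both experiments, 1 point a cell, with dashed lines at the limits of 150 and 400 CPM. The slp1/D NBs (46 and 275) fill the upper right without a gap to the D-only NBs beside them, and most slp1-only NBs of experiment 2 lie at 0 CPM of D.

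Markers of NBs and of other cell types were read in the slp1/D NBs. All 9 NB markers other than dpn, which was used to keep the cells, were detected in both libraries. mira, the adaptor of the basal fate determinants, was at 929 and 894 CPM and E(spl)mgamma-HLH, the Notch target whose reporter was used for the sort, at 823 and 765 CPM. The list for ganglion mother cells or new neurons (8 genes) summed to 3492 and 2842 CPM, against 2624 and 1804 CPM in slp1-only NBs and 2756 and 2849 CPM in D-only NBs. Most of it was elav, a neuronal RNA-binding protein gene (1539 and 1281 CPM), pros, the determinant passed to the ganglion mother cell (828 and 745 CPM), and hdc (812 and 591 CPM). The neuron list (8 genes, of which elav and fne are also in the former) summed to 1809 and 1424 CPM. It summed to 1180 and 849 CPM in slp1-only NBs and to 1255 and 1268 CPM in D-only NBs. Most of the slp1/D sum was elav, the only gene of the list called higher against either class by edgeR. The list median log2 fold change was -1.16 against slp1-only NBs and -2.80 against D-only NBs, where brp was called lower. In slp1/D NBs brp and nSyb, genes of mature synapses, were at 1.73 and 0.148 CPM and at 3.45 and 0.518 CPM. The glial list (9 genes) summed to 462 and 553 CPM, nearly all of it Eaat1 (162 and 165 CPM) and nrv2 (273 and 357 CPM), and repo, the defining glial gene, was at 0 and 0.148 CPM. The haemocyte list (5 genes) summed to 1.15 and 0.370 CPM and the neuroepithelial list (9 genes) to 45.4 and 34.3 CPM. NB markers were thus found together with some genes of their progeny, and the part of daughter cells or doublets in these sums was not tested. Whether the cells were passing from slp1 to D was not measured, since they were sampled once.

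Which genes set the slp1/D NBs apart from slp1-only NBs was tested on UMIs summed by class and library, with the library as a block. Of 6490 genes tested, 93 (1.43%) were higher and 158 (2.43%) were lower in slp1/D NBs, 3.87% in either direction (edgeR quasi-likelihood test, adjusted p under 0.05), and the median log2 fold change over all genes was 0.005. With the library as a block, these p-values measure only how far differences between classes varied from 1 library to the other. Without the library in the model 0 genes were higher and 1 lower, with 322 at an unadjusted p under 0.05. Of 15 temporal factors tested, 6 were lower (opa, ey, dmrt99B, hth, Oaz and nerfin-1), 4 were higher (hbn, scrt, sba and klu) and 5 did not pass. The list median log2 fold change was -0.47. By DESeq2 3 were lower and 4 higher, and with cells thinned to 5000 UMIs 5 were lower and 1 higher.

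Several factors of the early series were lower in slp1/D NBs, although Oaz UMIs were still found in 41.3% and 25.5% of them and SoxN, which is among the earliest, did not pass. opa, a zinc finger factor of the early series, was at 128 and 180 CPM in slp1-only NBs and at 6.33 and 6.81 CPM in slp1/D NBs, a log2 fold change of -4.66 ± 0.19 (SE, adjusted p = 1.59e-07 by edgeR), and the class values did not overlap. ey, the Pax6 factor that activates slp1, fell from 97.4 and 106 CPM to 7.48 and 10.4 CPM (-3.35 ± 0.46, adjusted p = 0.0014 by edgeR). dmrt99B, which encodes a DM domain factor, went from 59.9 and 84.9 CPM to 16.1 and 11.5 CPM (-2.62 ± 0.27) and Oaz, a zinc finger factor, from 158 and 171 CPM to 40.8 and 28.9 CPM (-2.37 ± 0.33). hth, the factor of the youngest NBs, was lower too (-2.47 ± 0.38), but its level in slp1-only NBs was 88.8 CPM in experiment 1 and 2.79 CPM in experiment 2, so the libraries differ more than the classes.

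The slp1-only class includes many cells with counts of earlier factors. At least 100 CPM of opa was found in 53.4% and 43.4% of slp1-only NBs but in 4.35% and 0.727% of slp1/D NBs. For ey the shares at 100 CPM were 41.4% and 39.9% against 6.52% and 1.45%, and for hth 34.5% and 0.439% against 8.70% and 0%. Cells of at least 100 CPM of hth or opa or 50 CPM of erm were 32.3% and 8.64% of D-only NBs. In slp1/D NBs they were 13.0% and 1.09%. The part of free RNA in these shares was not tested. Without slp1-only cells of at least 100 CPM of hth, opa or ey or 50 CPM of erm, a setting chosen after seeing the data that left 30 and 214 cells, 106 genes were higher and 86 lower. In that setting opa (log2 fold change -1.19) and dmrt99B (-2.46) were again lower, while ey (-1.41, adjusted p = 0.078 by edgeR) and hth (0.012) did not pass. opa, ey and hth helped to form the setting, so these values are descriptions.

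hbn, a homeobox factor of the series, was the temporal factor with the largest rise. It was at 41.5 and 46.7 CPM in slp1-only NBs and at 106 and 102 CPM in slp1/D NBs (log2 fold change 1.16 ± 0.15, adjusted p = 6.9e-04 by edgeR), and it was found in 31 of 46 and 195 of 275 of these cells. Against slp1-only NBs without early-factor cells the difference was larger (2.68). scrt, a Snail-type factor, was at 62.4 and 54.8 CPM against 80.5 and 107 CPM (0.71 ± 0.13), and it did not pass, with the sign turned (-0.073), when slp1-only NBs were formed without the limits on B-H1, tll and gcm. sba (0.64 ± 0.13) and klu (0.32 ± 0.07), a zinc finger gene active in dividing NBs, were higher by less. slp2 was at 470 and 634 CPM in slp1-only NBs and 721 and 758 CPM in slp1/D NBs, which did not pass (0.38 ± 0.11, adjusted p = 0.085 by edgeR), and neither did scro (-0.47 ± 0.13, adjusted p = 0.072), a homeobox factor of the middle series.

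**Figure D2:**
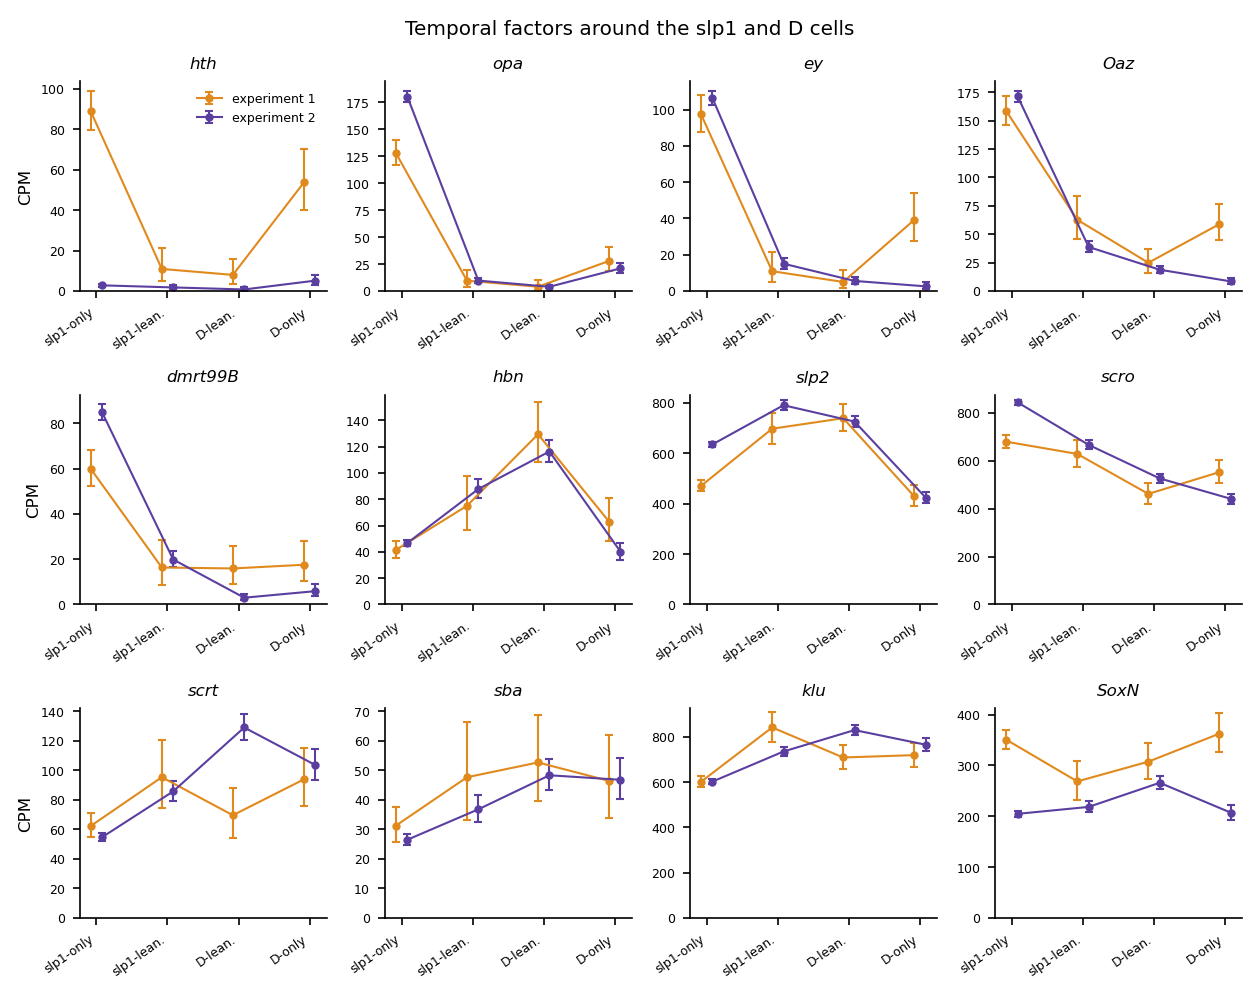
CPM of 12 temporal factors in slp1-only NBs, slp1/D NBs that lean to slp1 or to D, and D-only NBs, with exact Poisson 95% intervals that cover counting error only, for experiment 1 (orange) and experiment 2 (purple). opa, ey, Oaz and dmrt99B drop between slp1-only and slp1/D NBs, hbn is highest in D-leaning cells in both experiments (129 and 116 CPM), and scro declines from slp1-only to D-leaning cells.

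Some NB markers were higher in slp1/D NBs than in slp1-only NBs. Of 9 NB markers tested, 5 were higher, 0 lower and 4 did not pass, with a median log2 fold change of 0.32. With cells thinned to 5000 UMIs 3 were higher (mira, insc and CycE). Without early-factor cells in the slp1-only class 5 were higher and 1 lower. mira rose from 542 and 485 CPM to 929 and 894 CPM (0.79 ± 0.08, adjusted p = 1.1e-04 by edgeR). insc, which links the polarity complex to the spindle, was at 50.6 and 52.5 CPM against 102 and 112 CPM (1.02 ± 0.10). wor (0.34 ± 0.08), a Snail-family NB factor, and klu rose by less, and ase, E(spl)mgamma-HLH, nab and pnt did not pass. dpn, which was used to keep the cells, stood at 601 and 633 CPM against 326 and 453 CPM and was not tested.

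Of 16 Notch pathway genes tested, 3 were higher, 0 lower and 13 did not pass (median log2 fold change -0.07). numb, the inhibitor of Notch that is segregated to the daughter cell, was at 224 and 245 CPM in slp1-only NBs and 537 and 499 CPM in slp1/D NBs (1.10 ± 0.09, adjusted p = 4.9e-05 by edgeR), with no overlap. The ligand gene Dl (0.84 ± 0.10) and spdo (0.55 ± 0.10), which encodes a membrane protein that numb controls, were the others. The receptor gene N (783 and 699 CPM in slp1-only and 925 and 784 CPM in slp1/D NBs) did not pass. No tested E(spl) gene passed in this fit. Without early-factor cells in the slp1-only class 3 Notch genes were higher and 4 lower. With cells thinned to 5000 UMIs 2 were higher and 2 lower.

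Of 8 stage genes tested, 3 were lower in slp1/D NBs, 0 were higher and 5 did not pass. Syp, an RNA-binding protein gene whose rise marks late larval NBs elsewhere in the brain, was at 5959 and 4551 CPM in slp1-only NBs and 3815 and 2885 CPM in slp1/D NBs (log2 fold change -0.69 ± 0.05, adjusted p = 1.8e-05 by edgeR). Its counterpart Imp was lower as well (102 and 82.8 CPM against 42.0 and 56.1 CPM, -0.87 ± 0.17), as was chinmo (-0.43 ± 0.09). Without early-factor cells in the slp1-only class the difference in Syp did not pass (-0.12, adjusted p = 0.34 by edgeR), Imp and chinmo were again lower, and br, an ecdysone response gene, was higher (0.41, adjusted p = 0.0083). Of 5 spatial genes tested, bi (-0.80 ± 0.19) and salm (-1.68 ± 0.21) were lower.

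Cell cycle genes differed little. Of 15 cyclins, cyclin-dependent kinases and regulators, 2 were higher and 13 did not pass: CycE, which drives entry into S phase, rose from 934 and 887 CPM to 1565 and 1242 CPM (0.57 ± 0.08, adjusted p = 0.0012 by edgeR), and stg, the phosphatase that drives entry into mitosis, from 549 and 553 CPM to 835 and 828 CPM (0.55 ± 0.08). Of 28 S-phase genes CycE was higher and CDC45L lower, and of 35 G2/M genes stg was higher, with medians of -0.05 and 0.01. Of 86 ribosomal protein genes 14 (16.3%) were lower and 0 higher, by small amounts (median of the list -0.14), beside 2.43% of all genes lower. By DESeq2 8 of them were lower, and with cells thinned to 5000 UMIs 0. Of 14 heat shock genes 0 passed by edgeR, 0 by DESeq2 and 1 had an unadjusted p under 0.05.

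Further genes were named by size of change alone. Those higher in slp1/D NBs included grim, a cell death gene (12.0 and 2.83 CPM against 56.9 and 64.9 CPM, log2 fold change 3.66 ± 0.36), Wnt4, a secreted Wnt ligand (42.3 and 10.6 CPM against 168 and 112 CPM, 2.77 ± 0.26), and CG32850 (1.70 ± 0.12). The slp1/D NBs of both libraries exceeded the slp1-only NBs of both in grim, Wnt4 and CG32850. grim was found in 21 of 46 and 156 of 275 slp1/D NBs against 24 of 116 and 50 of 456 slp1-only NBs. With every cell thinned to 5000 UMIs these were 10 of 46 and 55 of 275 against 3 of 116 and 13 of 456, and free RNA was not measured for grim. apt, Rab14, Sema1a, a guidance receptor gene, and edl were higher by log2 0.99 to 1.10. Those lower were GstD1, a glutathione transferase gene (99.0 and 159 CPM against 18.4 and 36.9 CPM, -2.20 ± 0.14), the teneurin gene Ten-a (411 and 341 CPM against 124 and 82.4 CPM, -1.95 ± 0.11), lncRNA:CR33938 (-1.67 ± 0.10), CG43693, CG6770 and Prosap.

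**Figure D3:**
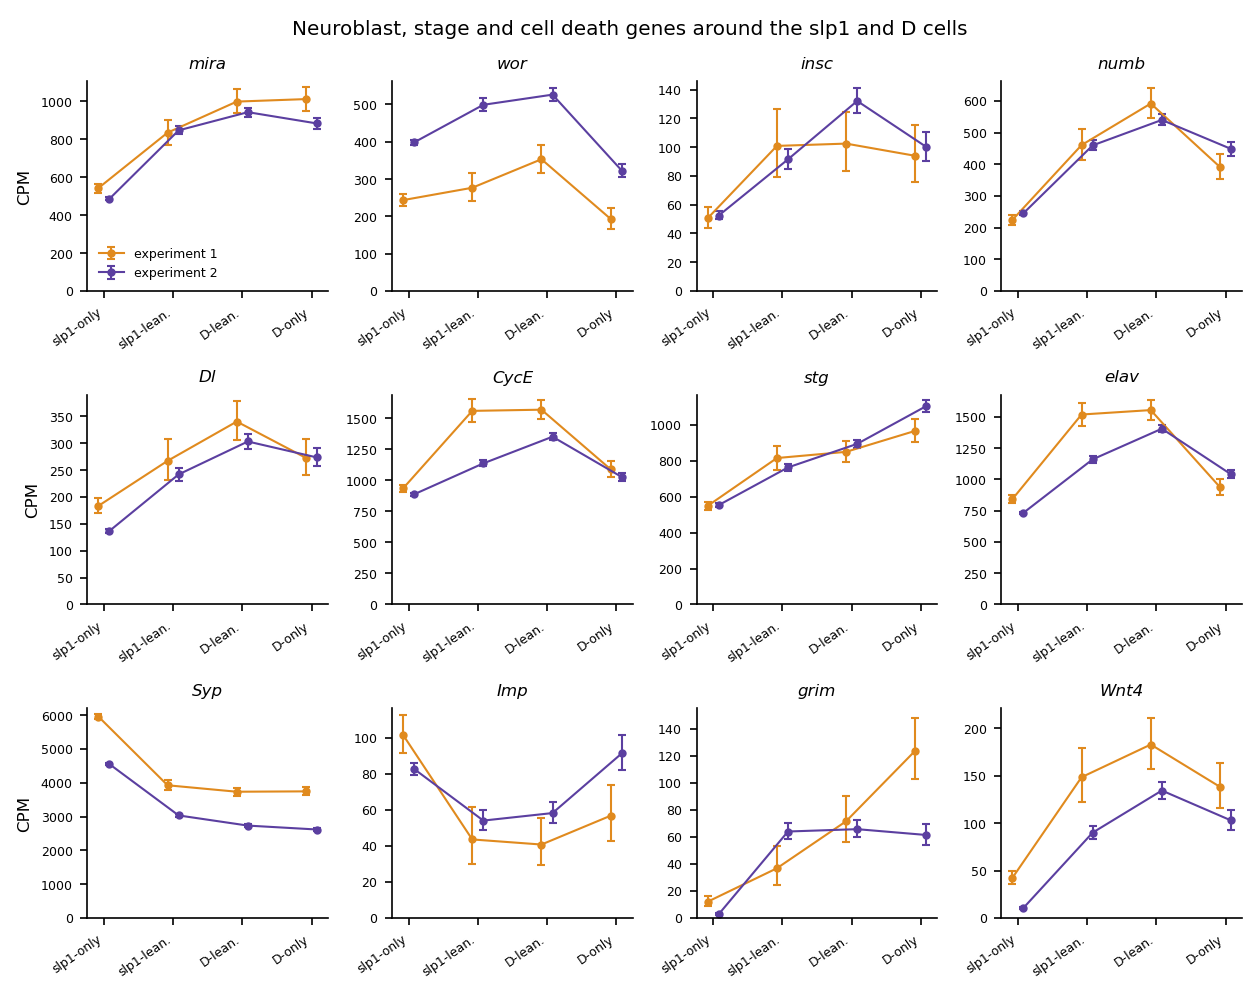
CPM of NB, cell cycle, stage and cell death genes in the same 4 sets of cells, with exact Poisson 95% intervals, experiment 1 in orange and experiment 2 in purple. mira, insc, numb and Dl step up between slp1-only and slp1/D NBs and stay up in D-only NBs, grim and Wnt4 step up from low levels, and CycE, elav and wor are higher in slp1/D NBs than on either side.

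The slp1/D NBs were then compared with D-only NBs. Of the 6490 genes, 10 (0.154%) were higher and 22 (0.339%) were lower in slp1/D NBs by edgeR, 0.493% in either direction, and 510 had an unadjusted p under 0.05. The D-only class is small (31 and 81 cells), and with the mitochondrial limit at 20%, or without the library in the model, 0 genes were higher, and 0 and 1 were lower, with 485 and 151 at an unadjusted p under 0.05. Among cells clear of the thresholds 46 genes were higher and 183 lower, beside 106 and 122 for the comparison with slp1-only NBs. That setting left only 6 and 27 D-only NBs, beside 24 and 157 slp1/D NBs and 44 and 253 slp1-only NBs. The part of these few cells in the counts was not tested. With cells thinned to 5000 UMIs 1 gene was higher, slp2 (0.74, adjusted p = 0.024 by edgeR), and 18 were lower, so that hbn (0.59, adjusted p = 0.73), wor (0.53, adjusted p = 0.36), elav (0.30, adjusted p = 0.73) and CycE (0.40, adjusted p = 0.27) did not pass there. Higher in slp1/D NBs were slp2, the neighbour of slp1, at 721 and 758 CPM against 429 and 424 CPM (0.83 ± 0.11, adjusted p = 0.0078 by edgeR), and hbn, at 106 and 102 CPM against 63.0 and 40.2 CPM (1.17 ± 0.17, adjusted p = 0.0096). Both genes were above the D-only values in each library. Also higher were wor (0.73 ± 0.09), elav (0.53 ± 0.09), CycE (0.43 ± 0.08), E2f1 (0.39 ± 0.06), a cell cycle transcription factor gene, lncRNA:CR43626 (0.79 ± 0.13) and lncRNA:CR30009 (0.37 ± 0.06). salr, a Spalt-family factor gene picked after its values were seen, was at 19.6 and 11.5 CPM against 4.13 and 2.30 CPM (2.32 ± 0.33).

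Of the lists, 2 of 15 temporal factors were higher (hbn and slp2) and 1 lower (opa), the list median being 0.02. Of 8 stage genes 0 passed by edgeR and 0 by DESeq2, with 3 at an unadjusted p under 0.05, and of 16 Notch genes 0 passed by edgeR and 1 by DESeq2, with 3 at an unadjusted p under 0.05. Of 28 S-phase genes Claspin (141 and 95.6 CPM against 228 and 168 CPM, -0.73 ± 0.11) and RnrS, a subunit of ribonucleotide reductase (281 and 317 CPM against 425 and 508 CPM, -0.61 ± 0.09), were lower and CycE higher, with a list median of -0.24 beside 0.02 for all genes. With cells thinned to 5000 UMIs 0 S-phase genes passed in either direction, Claspin and RnrS included. Of 14 heat shock genes Hsp68 (-0.70 ± 0.09) and Hsp26 (-0.51) were lower, with a median of -0.51. chrb, which encodes an inhibitor of TOR signalling, and Myc, a growth regulator, were lower by log2 0.85 and 0.91.

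The largest differences from D-only NBs rested on few cells. Fas3, an epithelial adhesion gene, was at 71.2 and 102 CPM in D-only NBs and 2.88 and 1.41 CPM in slp1/D NBs (-5.79 ± 0.36, adjusted p = 2.2e-05 by edgeR), but 2 cells held 88.4% and 91.0% of its UMIs in the D-only class. ct, a homeobox factor of some medulla neurons, was at 191 and 80.1 CPM against 17.3 and 3.33 CPM (-4.12 ± 0.77), with 89.2% and 65.2% in 2 cells, and opa at 27.9 and 21.0 CPM against 6.33 and 6.81 CPM (-1.75 ± 0.25), with 81.5% and 85.4% in 2 cells. Cells of at least 300 CPM of Fas3, 500 CPM of ct or 500 CPM of Rbp6 were 16.1% and 9.88% of D-only NBs and 4.35% and 0.364% of slp1/D NBs. When these cells were left out of every class, a choice made after seeing the data, 15 genes were higher and 18 lower, of which 10 and 5 were among those called with them. slp2 (0.71), hbn (1.08) and wor (0.69) passed without these cells, as did Claspin (-0.80), RnrS (-0.69), Hsp68 (-0.72) and Myc (-0.77). Fas3 (-1.41), ct (-0.35), opa (-0.31), CG43658 (0.17), chrb (-0.44), lncRNA:noe (-0.21) and lncRNA:CR33938 (0.19) did not.

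Both comparisons use the same slp1/D sums, so their values are set side by side for the genes that passed in the same direction in each. elav was at 842 and 732 CPM in slp1-only, 1539 and 1281 CPM in slp1/D and 938 and 1040.1 CPM in D-only NBs. hbn, CycE, wor and lncRNA:CR30009 were also highest in the slp1/D class of each library. For CycE the levels in the same order were 934 and 887, 1565 and 1242, and 1088 and 1027 CPM. Myc was lowest in the slp1/D NBs, with 128 and 50.1 CPM, 60.4 and 28.9 CPM, and 121 and 54.5 CPM, and opa, lncRNA:CR33938 and lncRNA:noe were lowest there too. The last 3 of these are genes whose difference from D-only NBs did not pass without the few cells described above. salr declined across the classes, at 53.5 and 47.8 CPM, 19.6 and 11.5 CPM, and 4.13 and 2.30 CPM.

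As a frame for these values, D-only NBs had 97 genes (1.49%) higher and 114 (1.76%) lower than slp1-only NBs by edgeR, 3.25% in either direction. The classes differ in cell number and in summed UMIs, and the part of this in the counts of genes was not tested.

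**Figure D4:**
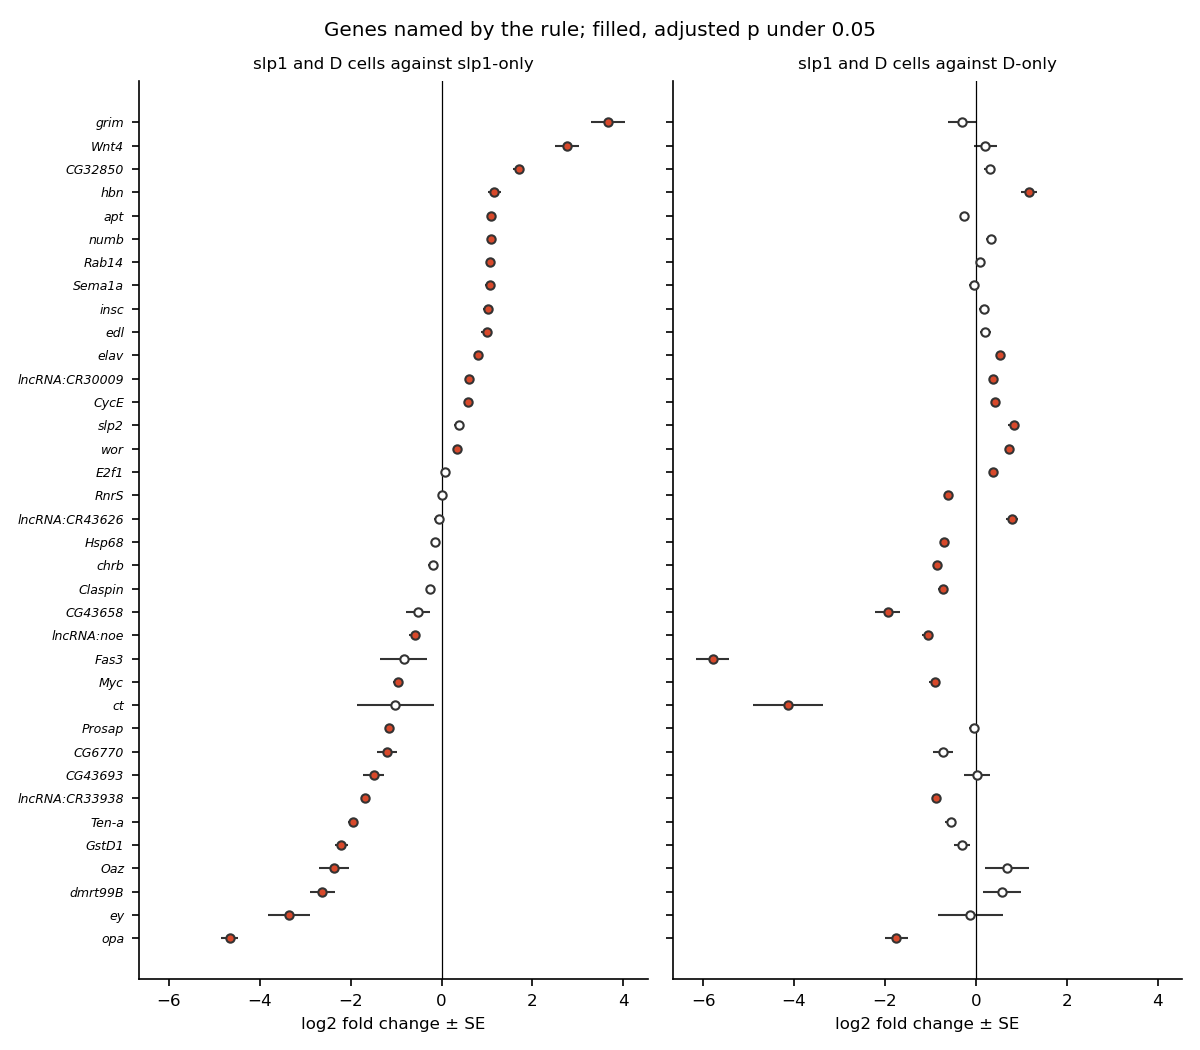
Log2 fold change with its SE of the genes named by the rule, in slp1/D NBs against slp1-only NBs (left) and against D-only NBs (right), filled where the adjusted p is under 0.05 by edgeR. Genes with filled points on the same side of 0 in both panels are hbn, elav, lncRNA:CR30009, CycE and wor above and opa, Myc, lncRNA:CR33938 and lncRNA:noe below, and ct has the widest bars.

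Within the slp1/D NBs, cells were divided at the median ratio of D to slp1 of their library. slp1 was at 474 and 485 CPM in the slp1-leaning and 293 and 316 CPM in the D-leaning cells, and D at 1153 and 1196 CPM against 1675 and 2122 CPM, as the division requires. Of 6605 genes tested, 0 (0.0%) were higher and 3 (0.0454%) were lower in D-leaning cells by edgeR, with 159 at an unadjusted p under 0.05 and 1 higher and 2 lower by DESeq2. With cells thinned to 5000 UMIs 0 of these 3 genes passed. Of the 3, Hey and Act57B are below the level set for naming and were picked after their values were seen. Hey, a Notch target of new-born neurons, was at 24.5 and 16.5 CPM in slp1-leaning and 1.99 and 1.65 CPM in D-leaning cells (-3.52 ± 0.61, adjusted p = 0.042 by edgeR), but in only 4 of 46 and 35 of 275 slp1/D NBs. Ten-a was at 194 and 103 CPM against 72.6 and 61.1 CPM (-0.98 ± 0.15, adjusted p = 0.022), and the actin gene Act57B at 12.3 and 19.6 CPM against 4.97 and 7.49 CPM (-1.39 ± 0.24, adjusted p = 0.042). In experiment 1 the slp1-leaning cells were shallower, with a median of 17764 UMIs against 45441, while in experiment 2 the medians were 48628 and 50302, and the part of depth in these values was not tested.

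Few relatives of slp1 and D were measured at a level to compare. Of 8 Sox genes, D and SoxN were the ones above 10 CPM in slp1/D NBs, with SoxN at 291 and 242 CPM, and of 3 Sox genes tested beside D 0 passed against either class by edgeR or DESeq2, and 0 had an unadjusted p under 0.05. SoxN had log2 fold changes of -0.03 ± 0.12 against slp1-only and 0.02 ± 0.13 against D-only NBs, but it was higher than in slp1-only NBs without early-factor cells (0.58, adjusted p = 0.0060 by edgeR). Of 15 forkhead genes, slp1, slp2, jumu (259 and 181 CPM) and FoxK (78.2 and 74.7 CPM) were above 10 CPM, and of the 5 tested slp2 alone passed, against D-only NBs. Factors of medulla neurons were low. Of 20, ham was at 196 and 204 CPM and ct at 17.3 and 3.33 CPM, and the 20 summed to 228 and 214 CPM against 310 and 154 CPM in slp1-only and 556 and 428 CPM in D-only NBs. ct and its few cells are only a part of the D-only sums. Against D-only NBs, ct alone of the 8 tested was called lower by edgeR, but 6 had an unadjusted p under 0.05, and the list median log2 fold change was -3.17. Against slp1-only NBs 0 were called, with a median of -1.17.

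Over all kept cells thinned to 5000 UMIs (516 and 2143), the gene whose counts ranked most like those of slp1 was slp2, with a Spearman coefficient of 0.380 and 0.545 among 4858 genes, followed by D (0.257 and 0.309). The genes most like D were slp2 (0.355 and 0.402), Wnt4 (0.276 and 0.297) and slp1. The cells of a library share its depth and free RNA, and apart from slp2 these coefficients are too weak in such sparse counts to rank genes.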

How the data were processed

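Single-cell mRNA was measured in 2 samples, 1 library of sorted NBs per experiment, made with the 10x 3′ v3 kit. The deposited matrices hold counts of UMIs per gene and cell, which the authors made with Cell Ranger (3.0.1 for experiment 1 and 3.1.0 for experiment 2) on the Ensembl BDGP6.22 genome, with cells called by EmptyDrops. The counts were not normalized, and gene names are those the files pair with the identifiers. The submitters' processing notes also name Seurat 3.2.3. No sequences were used here.

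Called cells held 42618478 UMIs in experiment 1 and 116712060 in experiment 2, and kept cells 16367816 and 101077489. Counts were summed by class and library (slp1/D NBs 1738952 and 13517984 UMIs, slp1-only NBs 3736764 and 26548265, D-only NBs 968454 and 3906300) and tested with edgeR 4.0.16 in R 4.3.3 (TMM, filterByExpr, quasi-likelihood test, Benjamini-Hochberg adjustment over all genes tested), with the library as a replicate block. This left 2 residual degrees of freedom for the 6 sums of the 3 classes and 3 for the 8 sums with slp1/D NBs divided by lean. Genes of the rule and 38 mitochondrial genes were left out of the tests. The block follows from the design, since the classes of a library share larvae, dissociation, sort and library, and deviations of the 2 libraries from the class means correlated between classes by 0.712, 0.501 and 0.522 over 5037 genes. The fit was also run on simulated counts, with a common dispersion for all genes and the same library effect in every class. That run therefore says nothing on genes held by few cells or on class differences that vary between libraries. Cells were handled with Python 3.11.15, numpy 2.4.6, scipy 1.17.1 and pandas 2.3.3.

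Named genes were those of the listed groups; up to 10 in each direction per comparison with the largest change, at least 50 CPM in the higher class of each library and the same sign in both; and those called the same way against both classes. Exceptions are stated. The classes and gene lists were chosen with earlier results of these data known. Alternatives were DESeq2 1.42.0, no filter, no block, at least 10000 UMIs per cell, cells thinned to 5000 UMIs, stricter thresholds, a mitochondrial limit of 20%, comparison classes without the limits on late factors, and the other kept cells added to the fit. Doublets were not removed, because the caller (scrublet in scanpy 1.11.5) called 0 of 6548 and 2 of 5343 cells and had not worked. Intervals are exact and cover counting error only.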

Additional observations from a re-analysis of the deposited data

How the results depend on the processing

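With 2 libraries of unequal depth, counts of changed genes moved with the processing more than the directions of named and listed genes did. For slp1/D against slp1-only NBs (93 higher, 158 lower), the higher genes numbered 147 without the filter on low counts, 28 with cells thinned to 5000 UMIs and 53 with a mitochondrial limit of 20%, and the lower genes 289, 41 and 63, with 84 by DESeq2, 103 with at least 10000 UMIs per cell and 86 without early-factor slp1-only cells. Against D-only NBs (10 and 22), the higher genes numbered 46 without the filter, 4 with at least 10000 UMIs, 1 thinned, 46 clear of the thresholds, 0 at 20% mitochondrial and 3 with the other kept cells in the fit, and the lower genes 43 by DESeq2, 158 without the filter, 9 with at least 10000 UMIs, 74 without the limits on late factors, 183 clear of the thresholds, 0 at 20% and 8 with the other cells. For D-only against slp1-only NBs (97 and 114), the higher genes numbered 188 without the filter, 22 thinned, 209 clear of the thresholds, 17 at 20% and 190 without early-factor slp1-only cells, and the lower genes 72 by DESeq2, 219 without the filter, 18 thinned, 12 at 20%, 69 with the other cells, 196 without early-factor D-only cells and 215 without cells high in Fas3, ct or Rbp6. For D-leaning against slp1-leaning cells (0 and 3), the higher genes numbered 1 by DESeq2 and 7 without the filter, and the lower genes 23 without the filter, 1 with at least 10000 UMIs, 1 thinned and 0 at 20%. Without the replicate block the higher and lower counts in the same 4 comparisons were 0 and 1, 0 and 1, 1 and 2, and 0 and 0. The limit of 20% raised the slp1-only NBs of experiment 1 from 116 to 801 cells. The setting clear of the thresholds left 6 and 27 D-only NBs. Apart from the block and the added cells, whose part is by construction, the cause was not tested.

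Directions were followed only for named and listed genes, which gave 99 called values. The slp1/D NBs had 251 called genes against slp1-only NBs, 32 against D-only NBs and 3 between leanings. Of the values followed, 7 turned direction. They were hth (0.012) against slp1-only NBs without early-factor cells, scrt (-0.073) against slp1-only NBs without the limits on late factors, CG43658 (0.053), lncRNA:CR33938 (0.40) and opa (1.29) against D-only NBs without early-factor cells, and CG43658 (0.17) and lncRNA:CR33938 (0.19) without cells high in Fas3, ct or Rbp6. Besides these, SoxN (0.58), ct (1.81) and lncRNA:CR43626 (0.52) were among the genes not called against slp1-only NBs but called higher without early-factor cells. br was another, and in that setting 4 Notch genes were called lower, against 0 in the main fit. The settings without early-factor cells or cells high in Fas3, ct or Rbp6 were chosen after seeing the data. For D-only NBs, cells of at least 100 CPM of hth or opa or 50 CPM of erm were left out, which left 21 and 74 cells. opa and hth helped to form the early-factor settings, and the slp1/D class was not filtered there. Their turned signs are therefore descriptions only. Leaving out either library kept the sign of all 99 called values of named and listed genes, and the other called genes were not followed. For genes named by size of change, the same sign in both libraries was a condition of naming, so this outcome was fixed. The others had been called on these same 2 libraries. No test was possible, since 1 library has no residual degrees of freedom, and counts of genes could not be formed. After thinning, D-only NBs were 5.09% of kept cells in experiment 2 against 3.78%. The alternative without doublets was not run.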

Other observations

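The cell death, glycolysis, small nucleolar RNP and asymmetric division groups given here were put together after their values had been seen, so their counts are descriptions and support nothing. Of the cell death genes next to grim, rpr was at 9.78 and 6.95 CPM in slp1/D NBs and 1.61 and 1.05 CPM in slp1-only NBs, and skl at 2.30 and 17.1 CPM against 1.07 and 0.640 CPM, so that most of skl was in experiment 2. hid was at 0 and 0.148 CPM. In D-only NBs grim stood at 124 and 61.4 CPM and skl at 24.8 and 13.6 CPM.

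Of 11 glycolytic enzyme genes tested, 7 were lower in slp1/D than in slp1-only NBs by edgeR, with a list median log2 fold change of -0.66, where 2.43% of all genes tested were lower. Ald, the aldolase gene, was at 24.4 and 13.1 CPM against 2.88 and 5.47 CPM, Tpi had a log2 fold change of -1.66 and Gapdh1 of -1.24. Of 8 core proteins of small nucleolar RNPs, which modify ribosomal RNA, 7 were lower (median -0.78), among them Nop60B at 243 and 186 CPM in slp1-only and 105 and 108 CPM in slp1/D NBs. Without early-factor cells in the slp1-only class 4 and 3 of these were lower, and with cells thinned to 5000 UMIs 3 and 2. Of both lists 0 genes were called against D-only NBs by edgeR and 0 by DESeq2, with 3 and 0 at an unadjusted p under 0.05. Of 15 asymmetric division genes, 5 were higher than in slp1-only NBs (neur, mira, spdo, insc and numb), beside 1.43% of all genes tested, and 3 with cells thinned.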
